A study of Mus musculus with 16 samples.

Results

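The addition of anti-PD-1 to ANT008 was examined in the T cell receptor β (TCRβ) repertoire of tumor-infiltrating T cells. The comparison held 8 of the 16 samples, chosen by their titles: 4 mice given ANT008 with anti-PD-1 (the combination group) against 4 mice given ANT008 with isotype IgG (the ANT008 group). All 8 mice were female C57BL/6 mice of 8 to 10 weeks with a subcutaneous KPC.Luc tumor in the flank, a luciferase-expressing line of pancreatic ductal adenocarcinoma. Treatment began 6 to 7 days after implantation and, per the labels, lasted 10 days, and the methods give day 21 for the harvest of the tumors. ANT008, a peptide antagonist of the receptors for vasoactive intestinal peptide (VIP-R), was injected at 10 µg every day in all 8 mice, and anti-PD-1 or IgG at 200 µg every 3 days. The other 8 mice received a scrambled peptide with IgG (control) or with anti-PD-1, and enter here only where the effect of anti-PD-1 with ANT008 was set against its effect without it.

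PD-1 is an inhibitory receptor on activated T cells, and antibodies that block it let T cells that have met their antigen go on responding. Each T cell clone carries a TCRβ chain whose complementarity-determining region 3 (CDR3) is made by joining a V, a D and a J segment, with bases trimmed and bases inserted at random at the joints. The CDR3 lies over the peptide when the receptor binds, so an expanded CDR3 marks an expanded clone, while a CDR3 made without inserted bases can arise easily and is often found in many individuals.

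Each sample came from 1 tumor and lists the unique rearrangements of an 87-nucleotide window with a template count, an estimate of starting molecules. Total templates ranged from 15271 to 83062 over the 8 samples at a near constant input of 2658 to 2673 ng. Rearrangements that the sequencing service called in frame are counted as productive, and shares below are percent of a sample's productive templates. This call does not leave out a stop codon in the V part of the window, before the CDR3. Rearrangements with such a stop codon held 0.743 to 8.35% of productive templates in the 8 mice, nearly all of them of Trbv24, and at most 0.126% outside Trbv24. T cells were selected on CD90.2 with a labelled purity of 80 to 85%. A TCRβ assay holds no marker that would check this or tell CD4+ cells, CD8+ cells and regulatory T cells apart. The study's methods give this selection and purity for its gene expression samples, and its results name DNA from tumors for the receptor sequencing. Productive templates equalled 2.82 to 14.3% of the cells estimated from the input mass in the 8 samples. What this means for purity was not tested. In such bulk samples, fewer T cells and fewer templates per cell cannot be told apart. Groups were compared by exact two-sided permutation over the 70 assignments of 4 and 4 mice, for which 0.0286 is the smallest p possible.

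The most frequent rearrangement of each mouse is printed first, since these clones set many of the values below. Bases are given 5′ to 3′ in lower case, and capitals mark inserted bases.
Combination 1, Trbv13-1 with Trbj2-2: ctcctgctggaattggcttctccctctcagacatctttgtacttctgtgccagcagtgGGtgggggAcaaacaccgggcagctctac
Combination 2, Trbv5 with Trbj2-7, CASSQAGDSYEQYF: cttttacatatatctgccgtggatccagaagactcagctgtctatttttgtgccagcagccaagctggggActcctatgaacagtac
Combination 3, Trbv13-3 with Trbj2-7, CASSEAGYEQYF: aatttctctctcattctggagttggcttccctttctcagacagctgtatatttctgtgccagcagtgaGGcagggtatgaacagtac
Combination 4, Trbv13-3 with Trbj2-7, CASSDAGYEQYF: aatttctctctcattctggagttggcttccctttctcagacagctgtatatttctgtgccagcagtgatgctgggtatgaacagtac
ANT008 1, Trbv3 with Trbj1-5, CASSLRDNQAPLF: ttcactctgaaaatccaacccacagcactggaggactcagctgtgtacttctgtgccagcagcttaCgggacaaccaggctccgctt
ANT008 2, Trbv1 with Trbj2-2: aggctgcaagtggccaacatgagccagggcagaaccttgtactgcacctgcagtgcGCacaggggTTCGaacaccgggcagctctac
ANT008 3, Trbv13-1 with Trbj2-1, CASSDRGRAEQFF: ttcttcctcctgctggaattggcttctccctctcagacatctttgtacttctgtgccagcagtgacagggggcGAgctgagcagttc
ANT008 4, Trbv14 with Trbj2-1, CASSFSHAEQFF: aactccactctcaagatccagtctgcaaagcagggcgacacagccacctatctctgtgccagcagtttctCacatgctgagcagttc

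All 8 leading rearrangements differed, and they used 6 V segments and 4 J segments. In the combination mice they held 2443 templates (7.31% of the sample, 95% Wilson interval 7.04 to 7.597), 1766 templates (7.20%, 6.88 to 7.53), 10570 templates (18.0%) and 2154 templates (5.95%, 5.72 to 6.20). The ANT008 leaders held 1311 templates (5.78%), 2906 templates (8.82%), 1589 templates (13.8%) and 1167 templates (5.62%). The sizes of the 2 groups overlapped, from 5.95 to 18.0% in combination mice and from 5.62 to 13.8% in ANT008 mice. Inserted bases ranged from 0 in the leader of combination 4 to 6 in that of ANT008 2. Each leader held between 98.6 and 99.8% of the templates of its own CDR3, and 6 to 39 rearrangements encoded that CDR3 in the mouse. The leaders of combination 1 and 2 and of ANT008 4 were found in no other of the 16 samples, whereas that of ANT008 1 was found in 7 others and that of combination 4 in 5 others.

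More templates were recovered from most combination tumors than from ANT008 tumors, but the difference did not pass the test. Productive templates numbered 33405, 24525, 58676 and 36172 in combination replicates 1 to 4, and 22679, 32935, 11537 and 20770 in ANT008 replicates 1 to 4. Of the combination mice, 3 lay above the highest ANT008 mouse, and combination 2 lay among them. The means were 38194 ± 14530 and 21980 ± 8775 (SD, n = 4), a log2 difference of 0.82 (SE 0.41) or 1.77-fold, with an exact permutation p of 0.0571 and an adjusted p of 0.2 over the 7 repertoire measures compared.

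Unique productive rearrangements numbered 13238, 6640, 12336 and 12459 in combination mice and 4769, 10877, 2745 and 4129 in ANT008 mice, again with 3 of 4 combination mice above all ANT008 mice. The log2 difference was 1.13 (SE 0.48), or 2.19-fold (exact permutation p 0.0571, adjusted 0.2). Each sample was then drawn 100 times to the 11537 templates of the smallest, since a deeper sample reveals more rare clones. At that depth the combination mice held 5577, 3768, 3227 and 4931 unique rearrangements and the ANT008 mice 2920, 4742, 2745 and 2757, where all 4 combination mice lay above 3 of the 4 ANT008 mice and ANT008 2 lay among them. The log2 difference was then 0.42, or 1.34-fold (exact permutation p 0.171).

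**Figure D1:**
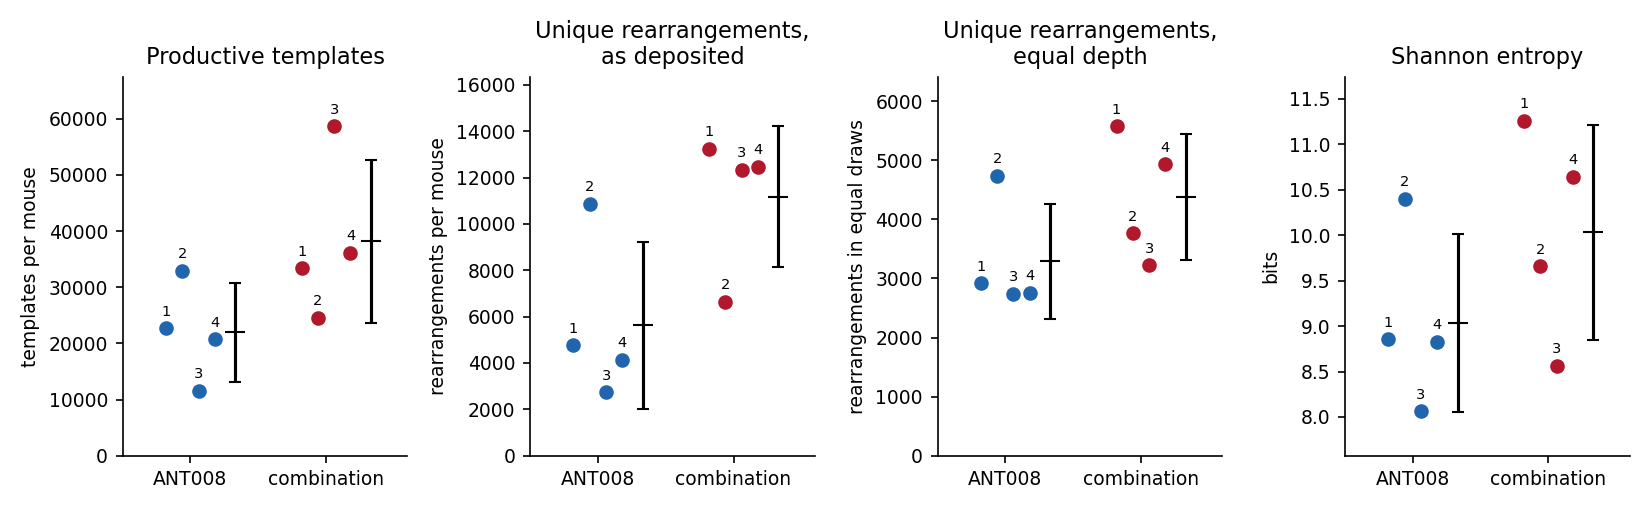
Productive templates, unique productive rearrangements as deposited and drawn to 11537 templates, and Shannon entropy in bits, for ANT008 mice (blue) and combination mice (red). Points are mice with their replicate number, and the bar beside each group is the mean with its SD (n = 4). The entropy axis does not start at 0. In each of the 3 counts most combination mice sit above most ANT008 mice, but the groups overlap. At equal depth ANT008 2 lies above combination 2 and 3 and below combination 1 and 4.

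Diversity and evenness did not separate the groups. Shannon entropy, which rises with the number of clones and their evenness, was 11.26, 9.66, 8.56 and 10.64 bits in combination mice and 8.86, 10.40, 8.06 and 8.82 bits in ANT008 mice. The difference of 0.994 bits (SE 0.767) had an exact permutation p of 0.286, and at equal depth it was 0.70 bits (p 0.314 by the same exact permutation). Clonality, which is 0 for clones of equal size, differed by -0.0136 (exact permutation p 0.8). In the top 10 rearrangements lay 19.3, 27.7, 43.1 and 24.5% of templates in combination mice and 31.7, 26.4, 42.7 and 32.1% in ANT008 mice, a difference of -4.56 percentage points (exact permutation p 0.457). Combination 3 and ANT008 3 were the most dominated by large clones, and each held the largest single clone of its group. Without combination 3 the log2 difference in the inverse Simpson index, an effective number of large clones, moved from 0.32 (exact permutation p 0.571) to 0.87. That value had an exact permutation p of 0.0286, not adjusted. Without ANT008 3 the log2 difference was -0.0057.

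Clones were also sorted by size. Clones of over 1% held 26.9 ± 9.85% of templates in combination mice and 34.0 ± 7.09% in ANT008 mice (SD, n = 4), and numbered 7.75 and 10.25 per mouse. Clones of 0.01% or less held 33.9 ± 9.07% and 23.2 ± 9.16%. The number of clones needed to reach 50% of templates ran from 25 to 439 in combination mice and from 26 to 198 in ANT008 mice, so that the lowest mouse of each group was alike. Rearrangements seen as a single template made up 77.1% of unique rearrangements in combination mice and 69.6% in ANT008 mice, shares that move with depth. No test was run on these size classes.

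**Figure D2:**
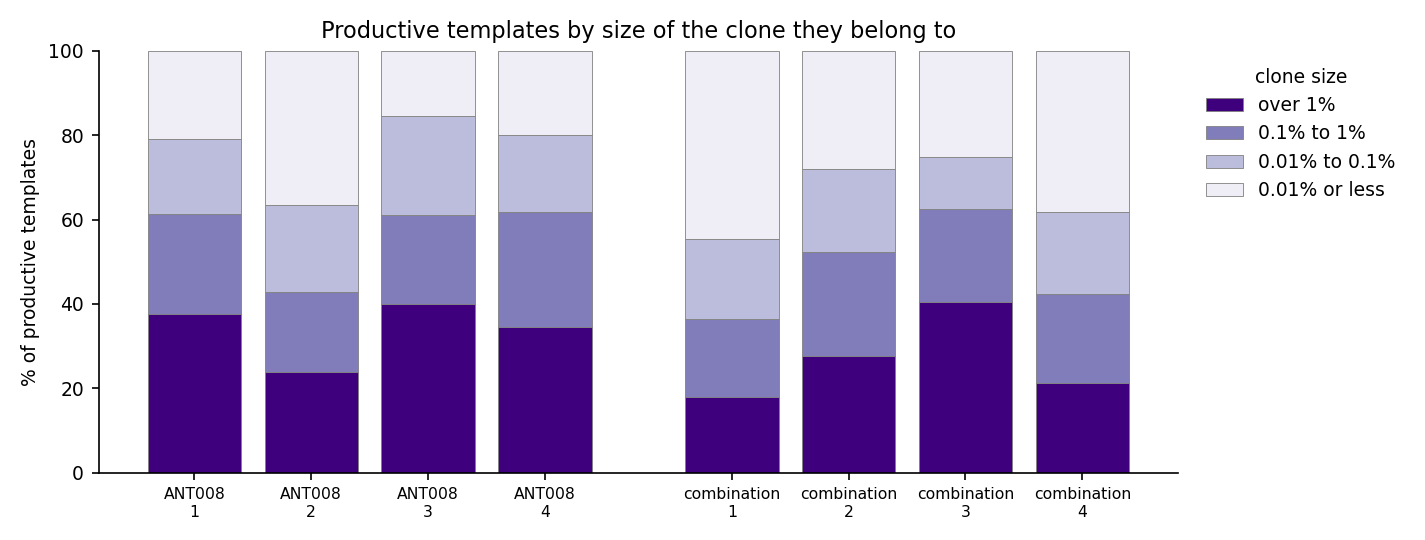
Percent of productive templates by the size of the clone they belong to, 1 bar per mouse, ANT008 mice on the left and combination mice on the right. Colors run from clones of over 1% (darkest) to clones of 0.01% or less (lightest), and each bar adds up to all productive templates. Combination 3 resembles ANT008 3 in its large clones, while combination 1 has the smallest share in clones of over 1%.

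Out-of-frame rearrangements cannot make a receptor and so are a record of rearrangement that selection by antigen does not act on directly. They made up 28.8% of templates in combination mice and 26.7% in ANT008 mice, a difference of 2.11 points (exact permutation p 0.371). Whether anti-PD-1 acted differently with and without ANT008 was tested by an interaction over 4900 assignments in all. These exchanged anti-PD-1 and IgG labels within each background. The null was therefore no effect of anti-PD-1 in either background, and an effect alike in both would break it too. None of the 7 measures passed. The lowest exact permutation p was 0.163, for productive templates (log2 interaction 1.201, SE 0.82, adjusted p 0.676), where anti-PD-1 differed from its own control by -0.38 without ANT008 and by 0.82 with it. Without anti-PD-1 replicate 3 this interaction was 1.68 (exact permutation p 0.0167, not adjusted), and without anti-PD-1 replicate 4 it was 0.56. For entropy the interaction was -0.0455 bits (exact permutation p 0.968).

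V segment usage was compared with edgeR's quasi-likelihood test on template counts. Of 26 V segments tested none was called at an adjusted p of 0.05 (percent called 0), 3 had an unadjusted p under 0.05, and DESeq2 called 1 of the 24 it gave an adjusted p. No V segment had shares that kept the 2 groups apart without overlap (percent not overlapping 0). The 3 with the smallest p were Trbv24, Trbv22 and Trbv14, and each rested on a few abundant rearrangements.

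Trbv24 rearrangements carried a stop codon before the CDR3 in nearly every case, so that as read they could not encode a full chain, although they were called in frame. Over the 16 mice 99.6% of Trbv24 rearrangements had one, against at most 1.82% for each of the other 24 V segments with at least 50 rearrangements. Trbv24 held 1.16, 0.970, 0.707 and 0.865% of templates in combination mice and 0.776, 1.44, 8.29 and 8.18% in ANT008 mice. The combination mice were close together, ANT008 1 and 2 lay at or near their level, and ANT008 3 and 4 were high. The log2 difference was -2.33 (SE 0.71) with an edgeR adjusted p of 0.0889. The log2 interaction with the anti-PD-1 effect in mice without ANT008 was -3.96 (edgeR adjusted p 0.0161). Among those mice anti-PD-1 replicate 3 was high, with 6.13% of productive templates in rearrangements with such a stop codon. Outside Trbv24 that share was 0.0381%. The other mice without ANT008 had 0.467 to 1.05% with a stop codon. DESeq2 gave a log2 difference of -2.59 (DESeq2 adjusted p 0.00558). The call turned on the mouse left out, with edgeR adjusted p from 0.0128 to 0.380 over the 8 fits that each left out 1 mouse of these groups. In ANT008 3 a single clone, joined to Trbj2-5 and 7.49% of the sample, made up 90.4% of all Trbv24 templates, and in ANT008 4 a different clone, joined to Trbj2-3 and 5.03% of the sample, made up 61.4%. The leading rearrangements of these clones are printed to show the stop codon and that they are unlike each other in the joint. Capitals mark the stop codon TAG, 2 codons before the first codon of the CDR3, and then the inserted bases.
Trbv24 leader of ANT008 3, 864 templates: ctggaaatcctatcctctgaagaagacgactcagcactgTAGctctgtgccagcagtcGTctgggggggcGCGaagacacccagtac
Trbv24 leader of ANT008 4, 1044 templates: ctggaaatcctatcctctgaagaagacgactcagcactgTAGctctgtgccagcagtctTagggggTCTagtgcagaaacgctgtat

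When each rearrangement was counted once, whatever its templates, these clones lost their weight and Trbv24 was lower in every combination mouse. The Trbv24 share of unique rearrangements was 1.53, 1.54, 1.49 and 1.52% in combination mice and 1.89, 1.80, 1.72 and 1.84% in ANT008 mice. The groups did not overlap, with means of 1.52 ± 0.0201% and 1.81 ± 0.0739% (SD, n = 4). The difference was -0.292 points (SE 0.0383, exact permutation p 0.0286, the smallest possible and not adjusted). These shares rest on 102 to 203 Trbv24 rearrangements per combination mouse and 47 to 196 per ANT008 mouse. With counts so small, the SD and SE of 4 mice may understate the uncertainty. In the edgeR fit over all V segments the adjusted p was 0.122. At equal depth the shares were 1.53, 1.57, 1.63 and 1.47% against 1.92, 1.90, 1.71 and 1.93%, which again did not overlap. Mice without ANT008 ranged from 1.49 to 1.72% in the control group and from 1.46 to 1.82% with anti-PD-1, and out-of-frame rearrangements counted once differed by 0.02 on the log2 scale. Of the 26 V segments, 2 were without overlap when counted this way (7.69%), the other being Trbv13-1 at 6.77 ± 1.04% against 5.53 ± 0.415% (difference 1.24 points, exact permutation p 0.0286, not adjusted). Both segments were named after their values were seen.

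Trbv22 showed the largest log2 difference, 3.23 (SE 1.13, edgeR adjusted p 0.119), and it rested on 1 mouse. In combination 1 it held 1.90% of templates, of which the clone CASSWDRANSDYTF made up 92.4%, and without that mouse the log2 difference was -0.21. Trbv14 held 2.88, 2.05, 1.76 and 1.71% in combination mice and 12.3, 1.51, 2.57 and 9.75% in ANT008 mice (log2 difference -1.64, edgeR adjusted p 0.209). Here ANT008 1 and ANT008 4 were high, and the leading clones of Trbv14 in them held 4.24 and 5.62% of the sample. Trbv15 held 2.95, 3.34, 3.35 and 2.46% against 2.19, 2.57, 1.78 and 1.22% (log2 difference 0.64, edgeR adjusted p 0.523), with 3 of 4 combination mice above every ANT008 mouse. It reversed to -0.06 when each rearrangement was counted once.

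Segments that invariant T cells favor were looked at together, since such cells could enter a CD90.2 selection. Trbv13-2, Trbv29 and Trbv1 are among the V segments paired with the invariant α chain of mouse natural killer T cells. Of these 3 none was called, with a median log2 difference of 0.13 against 0.20 over all 26, and their summed share ran from 11.5 to 17.3% in combination mice and from 9.68 to 22.8% in ANT008 mice. The segments favored by mucosal-associated invariant T cells are Trbv13-1, Trbv13-2, Trbv13-3 and Trbv19. Of these 4 none was called either, with a median of 0.25 and summed shares of 32.8 to 45.9% and 22.3 to 44.2%. These segments are used by conventional T cells as well, so their sums do not count invariant cells.

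Trbj2-1 was the only J segment whose template shares did not overlap, 1 of 13 (7.69%), while none was called by edgeR (percent called 0, with 1 at an unadjusted p under 0.05). It held 11.97, 9.51, 10.3 and 14.4% of templates in combination mice and 18.8, 15.2, 27.3 and 18.7% in ANT008 mice. Every combination mouse lay below every ANT008 mouse, though combination 4 and ANT008 2 were close. The log2 difference was -0.79 (SE 0.28) with an edgeR adjusted p of 0.126, ranging from -0.92 to -0.61 as each mouse was left out, and DESeq2 gave an adjusted p of 0.0145. The leading Trbj2-1 clone of each ANT008 mouse held 4.24, 3.53, 13.8 and 5.62% of the sample. With each mouse's leading Trbj2-1 clone taken away the shares were 14.6, 11.6, 13.6 and 13.1% in ANT008 mice and 10.1, 8.75, 8.22 and 10.8% in combination mice, which still did not overlap. With the 10 most frequent rearrangements of each mouse left out the log2 difference was -0.06, and with each rearrangement counted once it was 0.03. With rearrangements that carry a stop codon before the CDR3 left out it was -0.83 (edgeR adjusted p 0.119). The difference was thus seen by templates and not by the number of rearrangements.

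Other J segments differed less. Trbj2-5 had a log2 difference of -0.50 and Trbj2-3 one of 0.54, each with an edgeR adjusted p of 0.520. Counted once, 1 of 13 J segments was without overlap (7.69%), namely Trbj1-4 at 6.77% of rearrangements in combination mice and 7.29% in ANT008 mice (difference -0.516 points, exact permutation p 0.0286, not adjusted). The Trbj2 cluster as a whole held 72.9% of templates in both groups.

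**Figure D3:**
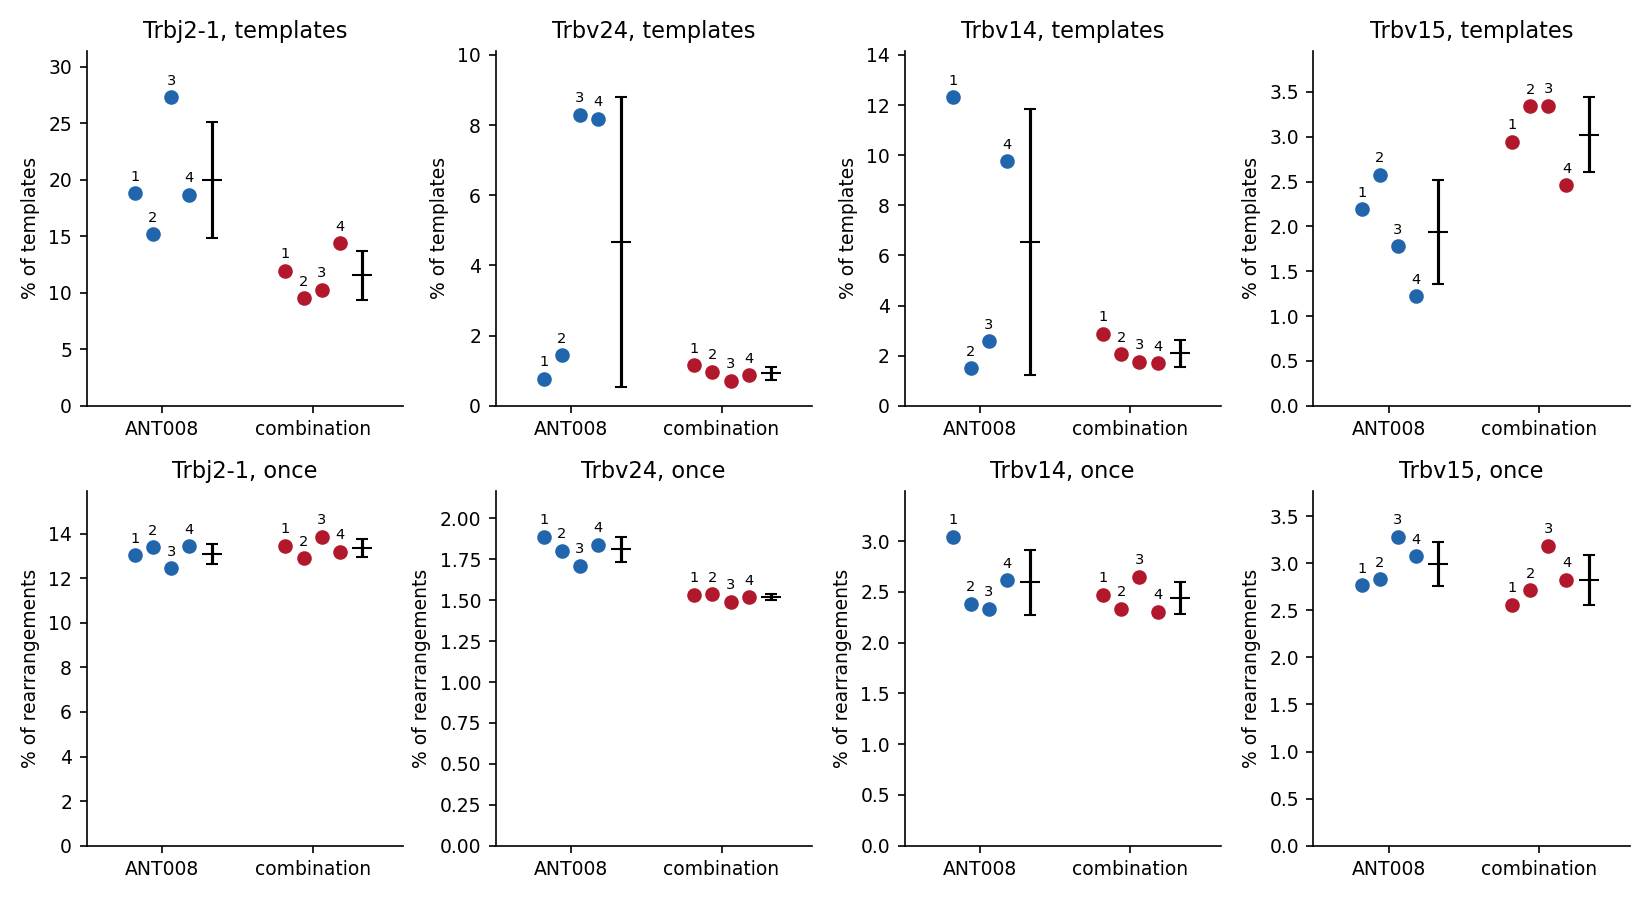
Share of Trbj2-1, Trbv24, Trbv14 and Trbv15 in each mouse, as percent of productive templates (upper row) and as percent of unique rearrangements, each counted once (lower row). Points are mice with their replicate number, ANT008 in blue and combination in red, with the mean and SD of 4 mice beside them. In the upper row ANT008 3 and ANT008 4 are high in Trbv24, ANT008 1 and ANT008 4 in Trbv14, and ANT008 3 in Trbj2-1. Each of these mice held a large clone of that segment. Counted once, only Trbv24 keeps the groups apart among these 4.

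Features of the CDR3 were compared next, 9 in all. The share of templates in rearrangements with no inserted base was 12.1, 8.43, 10.4 and 20.4% in combination mice and 7.29, 9.25, 7.71 and 5.98% in ANT008 mice. All combination mice but replicate 2 lay above the highest ANT008 mouse, and combination 4 stood farthest out. The difference was 5.29 points (SE 2.72, exact permutation p 0.0571, adjusted 0.514 over the 9 features). It was 6.76 points without combination 2 (exact permutation p 0.0286, not adjusted) and 2.77 without combination 4. The leading clones without inserts were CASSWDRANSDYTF at 1.76% in combination 1, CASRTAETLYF at 2.21% in combination 2 and a clone of Trbv13-1 and Trbj2-2 at 4.11% in combination 3. Combination 4 had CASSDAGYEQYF at 5.95% and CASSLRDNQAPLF at 4.55%. With the 10 most frequent rearrangements left out the difference was 1.03 points, and with each rearrangement counted once the shares were 9.03 and 9.24%. The higher share was thus seen by templates of the largest clones and not by the number of rearrangements.

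Mouse T cells have 2 Dβ segments, and the second, D2, can only be joined to Trbj2 segments. Of templates with a named D, D2 held 51.8, 56.3, 35.5 and 55.0% in combination mice and 45.3, 37.5, 43.0 and 33.8% in ANT008 mice. Here combination 3 was low and the other combination mice lay above all ANT008 mice. The difference was 9.74 points (SE 5.47, exact permutation p 0.143), and 14.5 points without combination 3 (exact permutation p 0.0286, not adjusted). Counted once the shares were 50.3, 48.2, 49.3 and 49.5% against 48.4, 47.8, 46.1 and 47.0%, a difference of 2.00 points (exact permutation p 0.0571) with 3 of 4 combination mice above every ANT008 mouse. Out-of-frame rearrangements differed by 10.2 points by templates and by -2.07 points counted once. Between 13.1 and 27.0% of templates had no D named in the 8 mice.

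**Figure D4:**
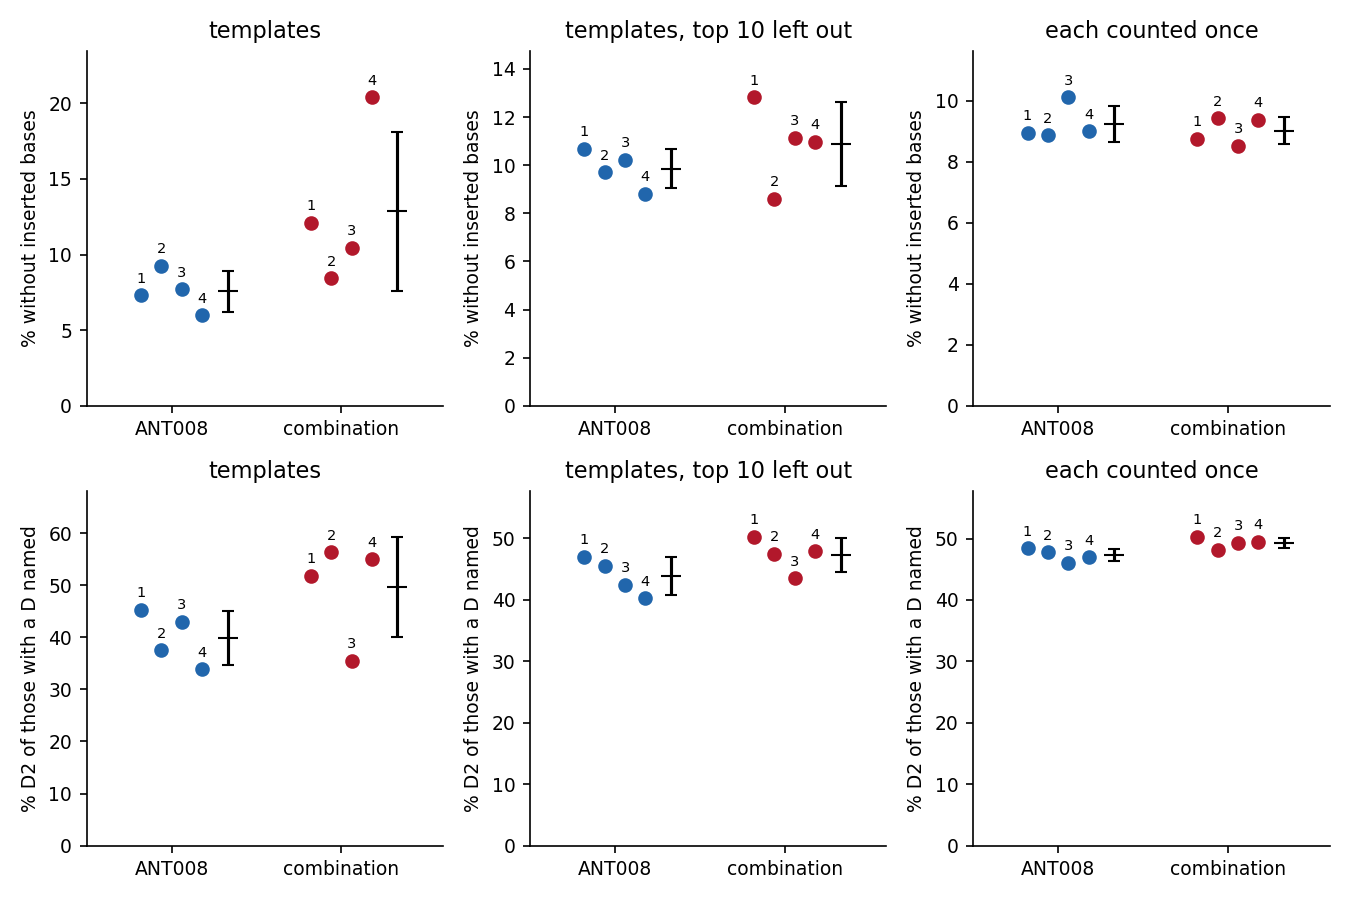
Percent of productive templates without inserted bases (upper row) and percent D2 among those with a named D (lower row), for each mouse by templates, by templates with the 10 most frequent rearrangements left out, and with each rearrangement counted once. Points are mice with their replicate number, ANT008 in blue and combination in red, with mean and SD (n = 4). The gap in rearrangements without inserts closes from left to right.

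The remaining features differed by less than the spread between mice. Mean CDR3 length was 13.84 residues in combination mice and 13.85 in ANT008 mice, inserted bases numbered 3.36 and 3.31, and trimmed bases 11.6 and 11.4. Hydrophobic residues at both CDR3 positions 6 and 7, a feature described for self-reactive receptors, were found in 1.23 and 1.26% of templates. Net charge was -0.967 and -0.901. A cysteine after the first CDR3 residue was found in 3.97 and 5.21%. This measure counts the cysteine that Trbv1 itself brings into the CDR3, and a Trbv1 clone led it in all 8 mice. In ANT008 2 the share was 13.2%, of which the Trbv1 clone printed above made up 8.82%.

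A CDR3 protein sequence was counted as shared within a group when 2 or more of its 4 mice had it in their top 50. The combination group shared 12 and the ANT008 group 6, with an exact permutation p of 0.171 when sharing was redone in all 70 assignments. With the group sizes matched, the difference of 6 was 0 without combination 1 and 1 without ANT008 2. The difference followed the rank at which clones were taken, with 4 and 3 shared among the 20 most frequent and 18 and 16 among the 100 most frequent. Only 2 clones in each group were in the top 50 of 3 or more mice. By identical nucleotide rearrangement each group shared 3. The ANT008 list held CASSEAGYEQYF, from ANT008 1 and ANT008 3. Its 28 templates in ANT008 3 all had the nucleotides of the rearrangement that led combination 3. Of the 12 clones shared by combination mice, 3 were also on the ANT008 list (25% of the first list and 50% of the second), namely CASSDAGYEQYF, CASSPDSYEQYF and a Trbv16 clone joined to Trbj2-7. All 12 were present at some rank in at least 1 ANT008 mouse, and 4 of them in all 4. The 12 clones added up to 6.37, 6.92, 1.72 and 12.8% of combination replicates 1 to 4.

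Of these clones, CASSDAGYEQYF (Trbv13-3 with Trbj2-7) was in the top 50 of all 4 combination mice and of 3 ANT008 mice. It held 1.55, 1.10, 0.360 and 6.04% of templates in combination mice and 0.013, 2.33, 0.884 and 1.204% in ANT008 mice, and the groups overlapped. Its most frequent nucleotide version is printed for the mice that differ from combination 4 above, inserted bases in capitals, because the most frequent version of the same protein sequence differed between mice, with 5 in these 8 mice.
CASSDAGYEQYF in combination 1 and 2: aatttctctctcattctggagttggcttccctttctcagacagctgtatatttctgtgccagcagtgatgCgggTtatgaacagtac
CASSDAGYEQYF in combination 3: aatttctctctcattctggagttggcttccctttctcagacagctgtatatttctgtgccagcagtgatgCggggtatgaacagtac
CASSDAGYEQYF in ANT008 1 and 3: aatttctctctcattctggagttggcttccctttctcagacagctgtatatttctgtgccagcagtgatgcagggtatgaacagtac
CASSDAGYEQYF in ANT008 4: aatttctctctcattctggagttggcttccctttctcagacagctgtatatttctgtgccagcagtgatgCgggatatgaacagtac

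ANT008 2 led with the version of combination 4, which has no inserted base. The version with 2 inserted bases led in combination 1 and 2, at 371 and 105 templates, and was found in no other of the 16 samples. The versions of combination 3, ANT008 1 and ANT008 4 were each seen in 1 to 3 other samples. In all, 66 rearrangements of the 8 mice encoded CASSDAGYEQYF.

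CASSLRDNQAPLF (Trbv3 with Trbj1-5) led ANT008 1 at 5.83% of templates and held 0.009, 0, 0.343 and 4.59% in combination mice. In combination 4 it was made by another rearrangement, without an inserted base, which is shown to set beside the leader of ANT008 1.
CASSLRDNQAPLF in combination 4, 1646 templates: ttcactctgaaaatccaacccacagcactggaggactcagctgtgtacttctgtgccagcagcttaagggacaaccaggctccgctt

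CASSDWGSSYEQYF (Trbv13-1 with Trbj2-7) was found in all 4 combination mice at 0.599, 0.869, 0.051 and 0.011% and in 2 ANT008 mice at 0.009 and 0.027%. It was chosen from the combination list by its rank there, and its levels are a description. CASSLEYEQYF and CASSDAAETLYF were on the combination list too, and both were also present in ANT008 mice. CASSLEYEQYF held 0.255, 0.183, 0.029 and 0.489% in combination mice and 0.070, 0.076, 0.009 and 0.250% in ANT008 mice. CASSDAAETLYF held 0.305, 0.155, 0.073 and 0.401% in combination mice and 0.115, 0, 0.035 and 0.077% in ANT008 mice.

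At any rank, 2602 CDR3 sequences were found in at least 2 combination mice and 994 in at least 2 ANT008 mice (exact permutation p 0.0571). At equal depth the numbers were 721 and 532, a difference of 189 (exact permutation p 0.2). CDR3 sequences in all 4 mice of the group numbered 22.4 and 15.6 at equal depth (exact permutation p 0.171). The Morisita-Horn index, which weights shared CDR3 sequences by their templates and is 0 where nothing is shared, averaged 0.0404 over the 6 pairs of combination mice and 0.0183 over the 6 pairs of ANT008 mice (exact permutation p 0.657). It averaged 0.0526 over the 16 pairs of 1 mouse from each group. The closest pair of all was combination 4 with ANT008 1, at 0.235. The Jaccard index at equal depth, the share of CDR3 sequences in common whatever their size, averaged 0.0211 in both groups (exact permutation p 0.914).

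**Figure D5:**
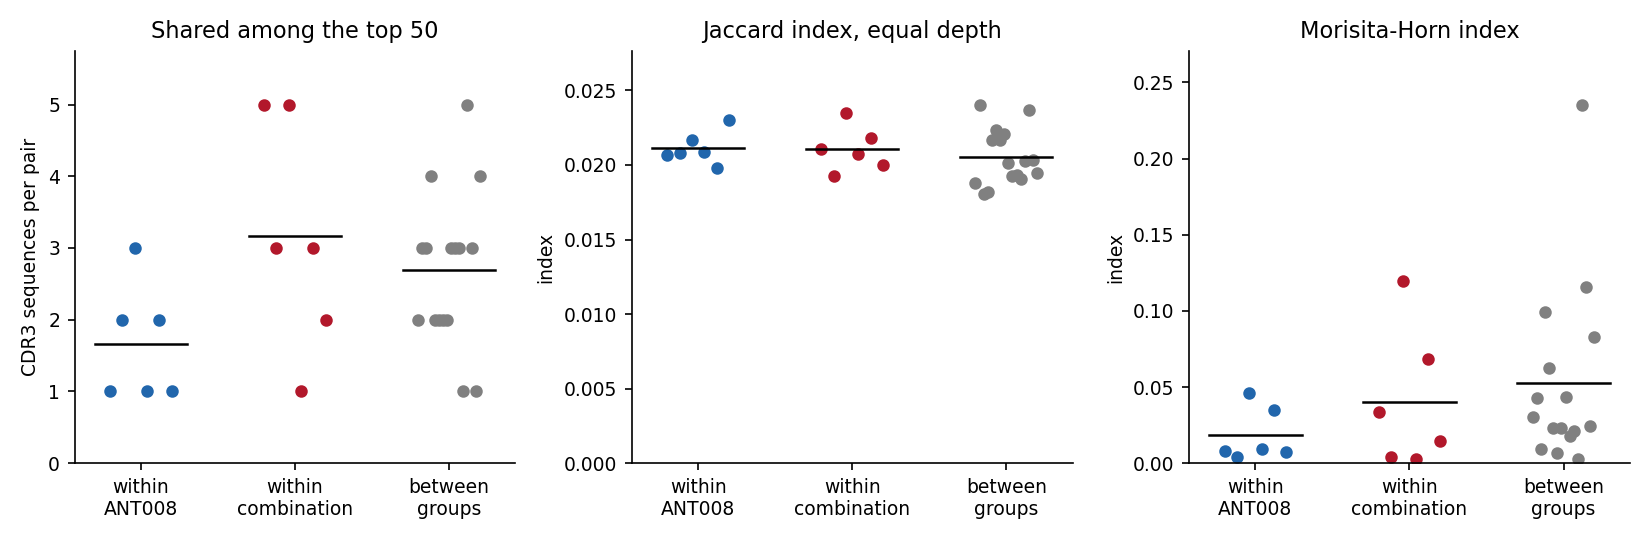
Overlap of pairs of mice as the number of CDR3 sequences shared among the 50 most frequent, the Jaccard index at equal depth and the Morisita-Horn index, which are without units. Each point is a pair of mice (6 within each group, 16 between groups) and the line is the mean. Pairs from different groups overlap as much as pairs within the combination group, and the highest Morisita-Horn index, 0.235, belongs to a pair between groups.

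Of the 578 CDR3 sequences found in at least 4 of the 8 mice, 20 (3.46%) were in all 4 combination mice and in 0 ANT008 mice, and 0 (0%) were in all 4 ANT008 mice and in 0 combination mice. Drawn to equal depth the numbers averaged 2.7 and 0.74. These clones were rare. A clone of Trbv1 and Trbj2-1 had 3, 17, 4 and 2 templates in combination mice, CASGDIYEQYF (Trbv13-2) had 1, 9, 11 and 2, and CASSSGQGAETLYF (Trbv3) had 1, 9, 4 and 5. Their shares ran from 0.003 to 0.069%, while a count of 0 allows a share of up to 0.00911% in the deepest ANT008 mouse and up to 0.026% in the shallowest.

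Public clones were CDR3 sequences present in 4 or more of all 16 mice, and were tested with edgeR. None of 2188 was called (percent called 0), and 229 of the 2188 had an unadjusted p under 0.05. DESeq2 called 0 of the 2049 it gave an adjusted p, with 21 at an unadjusted p under 0.05. Counts were low, with a median of 10 templates per public clone over the 16 mice. Of the public clones, 35% were absent from all combination mice or from all ANT008 mice. The clones with the smallest p were large in 1 mouse each. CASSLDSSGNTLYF (Trbv26 with Trbj1-3) had 3892 templates in combination 3, 2 in combination 4 and 0 in the other 6 mice. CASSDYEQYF had 276 templates in combination 4 and 1 in combination 1, and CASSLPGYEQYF had 106 in combination 2 and 1 in combination 4. In the other direction the Trbv24 clone of ANT008 4 had 1048 templates there and 1 in ANT008 2. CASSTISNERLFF had 294 templates in ANT008 1 and 2 in ANT008 4, and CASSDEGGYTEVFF had 53 in ANT008 2 and 6 in ANT008 4. All of these had an edgeR adjusted p of 0.439.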

How the data were processed

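Tumor T cells of 16 mice were profiled by sequencing of the TCRβ locus, and 8 mice were compared here, 4 in each group, as the labels give them. Per the file headers, the deposited values held for each rearrangement a template count, a whole-number estimate of starting molecules made by the sequencing service, the fraction of templates it took up in its sample, its segments, reading frame and inserted bases. The count of sequencing reads was empty in the deposited values. The labels and the methods name RNA as the input, and the study's account of its results names DNA, so a template may be a transcript or a cell. The aligner and build are not given in the sources used here, and no coordinates are printed. Sample numbers in the deposited values differ from those of the labels, so replicate numbers served only as names.

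Rearrangements that the deposited values call in frame were used, stop codons in the V part of the window included, counted by templates as the main setting. Entropy computed here equalled the deposited value within 4.82e-07 bits. Groups were compared by exact two-sided permutation with Benjamini-Hochberg adjustment over 7 repertoire measures and over 9 CDR3 features. Equal depth means 100 random draws to the smallest sample. Segments and public clones were tested with edgeR 4.0.16 (quasi-likelihood, all 16 samples in 1 fit, library size fixed at productive templates, segments with at least 10 templates, adjusted p threshold 0.05), with DESeq2 1.42.0 as an alternative, in R 4.3.3 and Python 3.11.15. Templates without a resolved V segment, at most 0.0433%, stayed out of the V test. Intervals and floors cover counting error only. The scripts were tested on simulated data.

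Named segments were the 5 V and 3 J with the smallest p and those of 2 lists of invariant T cells. Named clones were the leader of each mouse, the first clones on each shared list, the first 3 in all 4 mice of 1 group and in none of the other, and the 3 public clones with the smallest p in each direction. The members, lists and tests were chosen with earlier results of these data known.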

Additional observations from a re-analysis of the deposited data

Results flagged for a closer look

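Values were flagged where 1 mouse lay far from the other 3 of its group, over 60 groups of 4 looked at, of which chance flags about 1 in 20. On the log2 scale combination 2 had 12.697 for unique productive rearrangements, the lowest of its group. ANT008 3 was lowest in the log2 inverse Simpson index, at 4.83. ANT008 2 had a share of 13.2% with a cysteine after the first CDR3 residue and a Trbv1 share of 12.5%, and the same clone of 8.82% is counted in both. Trbv22 held 1.90% of templates in combination 1. Trbv13-1 held 16.6% in ANT008 3, of which the clone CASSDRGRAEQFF made up 13.8% of the sample.

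For Trbv24 the anti-PD-1 difference with ANT008, set against that without it, gave a log2 interaction of -3.96 (edgeR adjusted p 0.0161). This value was flagged by the test of the difference itself. Single clones made up 90.4 and 61.4% of the Trbv24 templates of ANT008 3 and ANT008 4. Rearrangements with a stop codon before the CDR3, nearly all of Trbv24, held 6.13% of productive templates in anti-PD-1 replicate 3. In the other mice without ANT008 rearrangements with such a stop codon held 0.467 to 1.05%. The part of these single mice and clones in the interaction was not tested. As read, nearly all Trbv24 rearrangements carry a stop codon before the CDR3.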

How the results depend on the processing

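No measure of templates, diversity, CDR3 features or sharing passed its test at the main setting, so a change of sign below is a change in a value not told apart from 0. With each rearrangement counted once, the sign turned for the out-of-frame share (-2.33 points), CDR3 length (0.069 residues), rearrangements without inserts (-0.218 points), trimmed bases (-0.127), hydrophobic residues (0.372 points), a cysteine after the first CDR3 residue (0.753 points), net charge (0.014) and the Trbj2 cluster (0.865 points), and on the log2 scale for Trbv22 (-0.022), Trbv15 (-0.065), Trbv26 (-0.142), Trbv1 (0.085), Trbv29 (-0.038), Trbj2-1 (0.025) and Trbj2-5 (0.016). With the 10 most frequent rearrangements left out it turned for CDR3 length (0.022), trimmed bases (-0.036), hydrophobic residues (0.389), such cysteines (0.888), net charge (0.027), the Trbj2 cluster (0.255), Trbv13-3 (-0.32), Trbv1 (0.28), Trbv29 (-0.040) and Trbj2-5 (0.046). In out-of-frame rearrangements it turned for the Trbj2 cluster (2.87 points), Trbv22 (-0.66), Trbv14 (0.19), Trbv13-3 (-0.18), Trbv29 (-0.27), Trbj2-1 (0.24) and Trbj2-3 (-0.50), and in these counted once, chosen after seeing the data, for inserted bases (-0.117), trimmed bases (-0.129), the D2 share (-2.07 points), Trbv24 (0.020), Trbv14 (0.0021), Trbv13-3 (-0.028), Trbv1 (0.108) and Trbv29 (-0.049). With rearrangements that carry a stop codon before the CDR3 left out, also chosen after seeing the data, it turned for CDR3 length (0.028 residues) and the Trbj2 cluster (0.963 points), no V or J segment was called, Trbv24 had too few templates to be tested, and sharing and public clones were not rerun. Clonality was 0.0049 without rearrangements of 1 template, the interaction in unique rearrangements was -0.030 at the depth of the smallest of the 16 samples, and the Jaccard index in place of Morisita-Horn gave -6.4e-05.

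V segments called numbered 1 with DESeq2 (Trbv24, -2.59), 1 with only the 8 samples in the fit (Trbv24, -2.33), 2 with no filter on low counts (Trbv24, -2.33, and Trbv22, 3.23), and J segments 1 with DESeq2 (Trbj2-1, -0.84). As each mouse was left out, V segments called ran from 0 to 1, Trbv24 from -2.69 to -1.90, Trbv22 from -0.21 to 3.62, Trbv1 from -0.74 to 0.60, Trbv29 from -0.14 to 0.36 and Trbv19 from -0.24 to 0.35. The Trbv24 call was made without ANT008 1 and without ANT008 2. In the same way clonality ran from -0.053 to 0.011, log2 inverse Simpson from -0.0057 to 0.87, CDR3 length from -0.089 to 0.055, inserted bases from -0.091 to 0.117, rearrangements without inserts from 2.77 to 6.76 points, trimmed bases from -0.025 to 0.359, hydrophobic residues from -0.255 to 0.236 points, such cysteines from -2.23 to 1.42 points, the Trbj2 cluster from -2.30 to 2.30 points, D2 from 7.52 to 14.5 points and Morisita-Horn from -0.0048 to 0.056. The interaction ran from 0.56 to 1.68 for log2 templates, from -0.549 to 0.443 bits for entropy and from -0.86 to 0.056 for log2 inverse Simpson. An exact permutation p under 0.05 was reached in 4 of these, not adjusted for the number of tests. Among them were inverse Simpson without combination 3 (0.0286), rearrangements without inserts without combination 2 (0.0286) and D2 without combination 3 (0.0286). The last was the template interaction without anti-PD-1 replicate 3 (0.0167). Each difference had 8 such tests and each interaction 16. With 1 mouse of the 8 compared left out, 0.0286 is the smallest p possible for a difference. The difference in shared top 50 clones ran from 0, without combination 1, to 5.

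Replicate numbers of the labels only name the mice: same-numbered mice of the 2 groups did not deviate together in V usage (r from -0.192 to 0.257). The edgeR fit with the replicate block gave a Trbv24 log2 difference of -1.89. With the block, the 39 results of the text that were rerun kept the same direction and call. For repertoire measures and CDR3 features the block was a sign-change test of same-numbered mice, for which 0.125 is the smallest p possible. None of them had passed without the block and none could pass with it, so their unchanged call carries no information. Among segments not named in the text the sign turned in the fit with the block for Trbv4 (-0.04 to 0.05), Trbj1-6 (-0.02 to 0.08) and Trbj2-6 (-0.12 to 0.27). Depth limits what rare clones can show, since most CDR3 sequences were seen in 1 mouse.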

Other observations

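CDR3 sequences found in 2 or more of the 8 mice held fewer inserted bases than those of 1 mouse. The number of rearrangements per CDR3 rose with the number of mice. It pools all mice that hold the CDR3, so each further mouse can add to it. Of 53443 distinct CDR3 sequences, 48398 were in 1 mouse and 12 in all 8. Their rearrangements held on average 4.00 inserted bases in the first class, between 1.75 and 2.43 in each of the classes of 2 to 8 mice and 2.04 in that of all 8. In CDR3 sequences of 1, 2 and 8 mice each CDR3 was encoded by 1.06, 2.20 and 19.8 rearrangements, pooled over its mice. The 12 CDR3 sequences of all 8 mice held 2.43, 1.72, 0.605 and 7.39% of templates in combination mice and 2.38, 2.80, 1.40 and 2.34% in ANT008 mice, and the highest and the lowest of these values were both in combination mice. CDR3 sequences of 1 mouse held from 43.8 to 72.0% in combination mice and from 56.6 to 63.6% in ANT008 mice. Combination 3, the lowest, had its leading clone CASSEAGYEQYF in common with 2 ANT008 mice.

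The leading rearrangement of combination 3, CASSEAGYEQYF with 10570 templates, was found by identical nucleotides in ANT008 3 at 28 templates and in none of the other 14 samples. That of ANT008 3, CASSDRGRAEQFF with 1589 templates, was found by identical nucleotides in ANT008 4 alone. How such rearrangements came to be in 2 mice was not tested.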
